A study of Arabidopsis thaliana with 88 samples.

Results

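Intergenic loci of long noncoding RNA (lncRNA) that lie close to fragments of transposable elements (TEs), without overlapping one, were examined for DNA methylation in leaves of 32 natural accessions of Arabidopsis thaliana. The near-TE loci were chosen from coordinates alone. They were the noncoding loci of the authors' annotation that overlapped, by as little as 1 bp on either strand, no Araport11 locus of any kind and no coding or other transcript of the authors' annotation, and whose nearest Araport11 TE fragment lay less than 1000 bp away. This rule gave 587 of the 36877 loci of the annotation, of which 11071 were noncoding. The remaining intergenic lncRNA loci are used for comparison and comprise 670 far loci, at least 1000 bp from a TE fragment, and 895 loci over a TE fragment. All coordinates are those of the reference genome, so whether a fragment lies at the same place in every accession is not known.

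DNA methylation was read from bisulfite-treated genomic DNA in 88 libraries sequenced across the whole genome with paired reads of 100 bp. All plants were grown in the same way, on soil at 21 °C with 16 h of light, without a treatment. An accession is an inbred line derived from a wild plant and is named by its number; 6909 is Col-0, the line behind the reference genome, and 6911 is Cvi-0. A single library represented each of 5486, 9512 and 9845, while 13 accessions had 2 libraries, 5 had 3 and 11 had 4, and the replicate number stood for 1 of 4 rounds of sowing and growth. Libraries were made from mature leaves of 2 to 3 plants at the stage of 14 or more leaves, before bolting, so a level is an average over plants and over the cell types of the leaf.

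In plants, cytosines are methylated in CG, in CHG and in CHH, H standing for A, C or T. CG methylation is copied by the maintenance enzyme MET1 after DNA replication, CHG methylation by chromomethylase 3 together with histone H3 lysine 9 methylation, and CHH methylation is renewed by RNA-directed DNA methylation and chromomethylase 2. TEs commonly carry all of these marks and are silenced, and methylation can extend from a TE into the DNA beside it, while methylation inside transcribed genes is mostly confined to CG.

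The near-TE loci were short. Their median length was 569 bp and the range 264 to 10134 bp, against a median of 577.5 bp for far loci and 743 bp for loci over a TE fragment. The nearest TE fragment lay before the start of 324 near-TE loci and past the end of 263. Its median distance was 210 bp, with quartiles at 74 and 500 bp. The distance was below 250 bp at 321 loci, from 250 to 500 bp at 119 and from 500 to 1000 bp at 147, and 2 loci abutted the fragment at 0 bp. The nearest fragments were themselves small, with a median of 306 bp, and 323 loci had more than 1 fragment within 1 kb. Some loci shared surroundings, since the 587 loci had 538 distinct nearest fragments and 152 overlapped another noncoding locus, so they are not independent of each other. Pericentromeric sequence, taken as 1 Mb bins in which TE genes outnumber protein-coding genes, held 127 near-TE loci (21.6%), 54 far loci (8.06%) and 314 loci over a TE fragment (35.1%). The nearest gene lay at a median distance of 1006 bp from near-TE loci, 454.5 bp from far loci and 1400 bp from loci over a TE fragment.

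The deposited levels are fractions without read counts, so read depth is unknown for every value and no counting interval can be given; a level of 0% or 100% at a short locus may rest on few reads. A CHH value of exactly 1 was read as no data. By this rule each library of the other accessions lacked a value at 10.6% to 18.2% of near-TE loci, while libraries of 6909 lacked 1.19% to 1.87%. A level is reported for loci with a value in at least 80% of libraries, which were 454 near-TE loci in CG, 439 in CHG and 454 in CHH. The 133 loci left out in CG and CHH were more methylated in 6909, where the 124 with a value averaged 48.7% CG, against 26.8% for the 454 kept, so the class levels describe the loci that could be read in most accessions. In CG, 4.17% of the values of near-TE loci were exactly 100%, and single libraries at 100% stood beside replicates at 0% at some loci, so the count of loci with both states leaves CG values of exactly 100% out, while the F-tests and the values of single loci keep them unless stated. The library of accession 5779 replicate 1 stood apart in CG, at 29.9% over near-TE loci against 23.5% and 22.7% in its replicates; no class difference below changed its call without it.

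Near-TE loci were intermediate between far loci and loci over a TE fragment in every sequence context. Their CG level was 26.8% ± 2.11 (SD over 32 accessions), against 11.9% ± 1.21 at far loci and 51.6% ± 2.96 at loci over a TE fragment. Their CHG level was 8.74% ± 1.23, against 4.21% ± 0.603 at far loci and 17.4% ± 2.15 at loci over a TE fragment. Their CHH level was 2.20% ± 0.300, against 1.45% ± 0.184 at far loci and 4.99% ± 0.607 at loci over a TE fragment. The ranges of accession values did not overlap between near-TE and far loci in CG, with 21.1% to 30.6% at near-TE loci and 8.66% to 14.4% at far loci. The difference between near-TE and far loci was 14.9 ± 1.10 percentage points (CG), 4.53 ± 0.821 (CHG) and 0.746 ± 0.192 (CHH), and near-TE loci were higher in 32 of 32 accessions in each context. Against loci over a TE fragment the differences were -24.8 ± 1.69, -8.67 ± 1.07 and -2.79 ± 0.374, with near-TE loci higher in 0 of 32 accessions. Each of these 6 differences had an adjusted p of 1e-05 in a two-sided sign-flip permutation test over accessions, the smallest value that 100000 resamples can give; the test takes the loci as fixed. Within growth rounds the CG difference from far loci was 14.9, 14.9, 14.8 and 15.1 percentage points in rounds 1 to 4. On chromosome arms it was 10.4 percentage points.

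**Figure D1:**
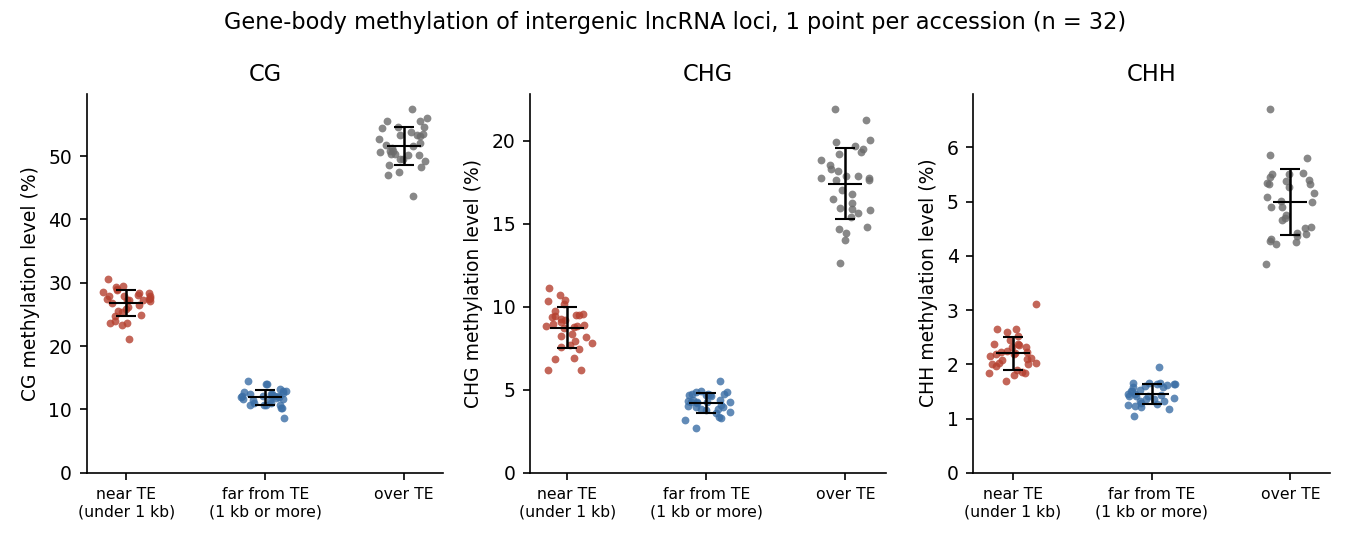
Gene-body methylation level (%) in CG, CHG and CHH for near-TE loci, far loci and loci over a TE fragment, left to right in each panel. Each point is 1 accession, and the black marks give the mean and SD of 32 accessions: near-TE loci averaged 26.8% CG, far loci 11.9% and loci over a TE fragment 51.6%.

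The mean over near-TE loci hides a split between loci with little and loci with much methylation. At 248 of 454 near-TE loci (54.6%) the CG level averaged 10% or less over libraries, at 133 (29.3%) it was 50% or more, and 73 lay between. Among far loci 76.2% were at 10% or less and 10.8% at 50% or more, and among loci over a TE fragment the shares were 20.8% and 57.4%. When each library was summarised by the median locus in place of the mean, the difference between near-TE and far loci shrank to 0.0347 percentage points in CG and 0 in CHG and passed no threshold (adjusted permutation p = 1 for both), and in CHH it was 0.340. The median over loci of the level averaged over libraries was 5.75% CG for near-TE loci and 1.40% for far loci.

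Highly methylated near-TE loci carried non-CG methylation as well. Of the 127 near-TE loci with at least 50% CG and values in all contexts, 118 had a CHG level of at least 10% and 9 did not. Near-TE loci with at least 50% CG had median levels of 22.3% in CHG and 4.54% in CHH, while near-TE loci with at most 10% CG had a median of 0.438% in CHH. The other classes were alike in this. Among loci with at least 50% CG, 56 of 59 far loci and 277 of 290 loci over a TE fragment had at least 10% CHG. Their medians were 26.4% and 26.2% in CHG, and 5.62% and 5.26% in CHH. A CHH level of 5% or more was found at 66 near-TE loci, 8 of which had less than 50% CG.

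Near-TE loci closest to a TE fragment were more methylated than those farthest from it. Loci at less than 250 bp averaged 30.8% CG and 10.1% CHG over accessions, against 18.4% and 5.46% at 500 to 1000 bp. The differences were 12.4 ± 2.01 (CG), 4.63 ± 0.820 (CHG) and 0.847 ± 0.231 (CHH) percentage points. The closer loci were higher in 32 of 32 accessions in each context (adjusted p = 1.36e-05, sign-flip permutation test). Here and in the sign-flip tests below, the loci are taken as fixed, so p does not measure the spread over loci. With the median over loci the CHG difference was 0 and not called. Loci at 250 to 500 bp had a mean over loci of 28.2% CG, 9.46% CHG and 2.75% CHH, against 31.2%, 10.2% and 2.38% below 250 bp, so CHH did not fall between these bins, and the median CG level was 10.7% against 9.39%. The share with at least 50% CG was 34.9% (83 of 238) below 250 bp, 30.2% (29 of 96) at 250 to 500 bp and 17.5% (21 of 120) at 500 to 1000 bp. Beyond the limit the share was 15.8% (21 of 133) of far loci at 1000 to 2000 bp, 12.3% (25 of 204) at 2000 to 5000 bp and 7.17% (19 of 265) at 5000 bp or more.

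**Figure D2:**
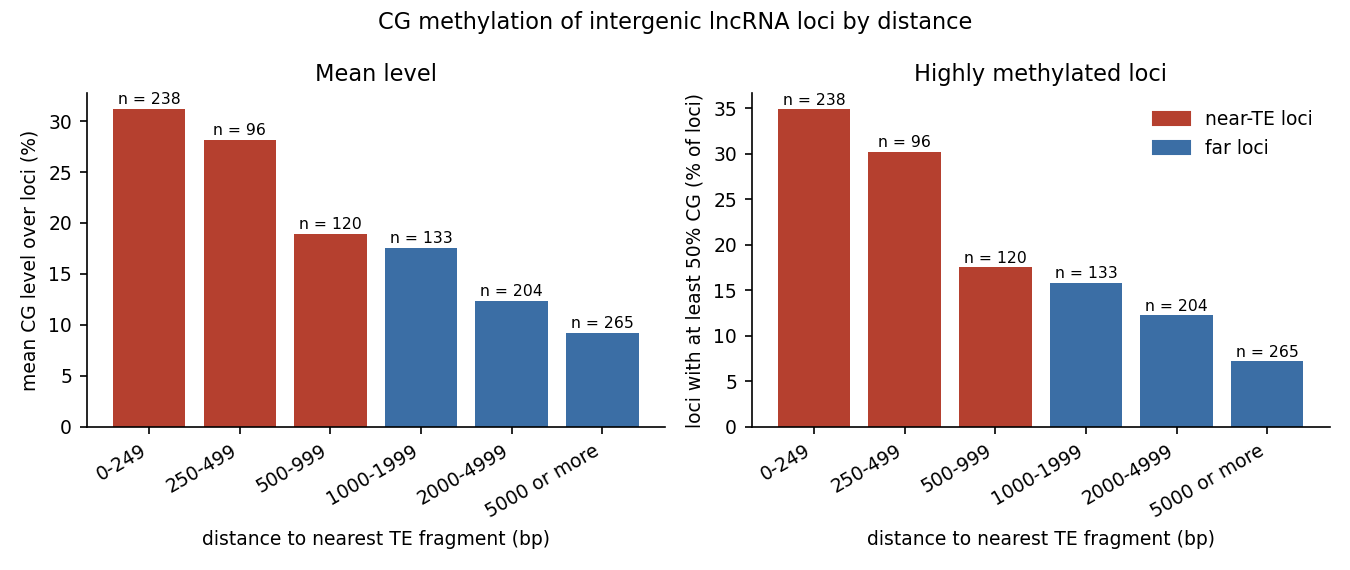
Mean CG level over loci (%, left) and share of loci with at least 50% CG (%, right) by distance to the nearest TE fragment in bp, for near-TE loci (red) and far loci (blue), with the number of loci above each bar. The share fell to 17.5% at 500 to 1000 bp and was 7.17% at 5000 bp or more.

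Chromosome position moved with distance. Of the near-TE loci with a CG level, 23.9% were pericentromeric below 250 bp, 14.6% at 250 to 500 bp and 10% at 500 to 1000 bp, and pericentromeric near-TE loci averaged 60.4% CG, against 19.9% on the arms. On the arms the difference between loci below 250 bp and loci at 500 to 1000 bp was 6.35 percentage points in CG, past the threshold (adjusted p = 1.15e-05, sign-flip permutation test). The CG level there was 21.5% below 250 bp, 22.4% at 250 to 500 bp and 15.3% at 500 to 1000 bp. Pericentromeric far loci averaged 48.0% CG (44 loci) and far loci on the arms 9.26%, so near-TE loci were the higher class in both parts of the chromosome.

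The number and size of the neighbouring fragments also went with the level. Near-TE loci with 1 fragment within 1 kb averaged 20.2% CG (219 loci), those with 2 or 3 fragments 31.4% (196) and those with 4 or more 46.2% (39), and 10.5%, 23.0% and 38.5% of them were pericentromeric. Loci beside a fragment of at least 1000 bp averaged 37.4% CG (65 loci), against 25.3% beside fragments of 300 to 1000 bp (167) and 25.8% beside fragments under 300 bp (222), and 33.8%, 16.8% and 14.9% of them were pericentromeric. These shares were not tested.

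The side on which the TE fragment lay was tested next. Gene bodies of loci with the fragment before their start and loci with it past their end differed by 0.904 (CG), 0.446 (CHG) and 0.0994 (CHH) percentage points. These differences passed the threshold (adjusted p = 0.00195, 0.00141 and 0.0039, sign-flip permutation test) but turned round among loci of at least 500 bp, at -2.85, -0.885 and -0.335, and on chromosome arms were larger, at 3.76, 1.24 and 0.363. The promoter window, which reaches 200 bp to each side of the start and so shares sequence with the gene body and, at 159 loci, with the fragment, showed more. There, loci with the fragment before their start had 29.3% CG, 8.38% CHG and 2.79% CHH, against 24.0%, 6.24% and 2.22% with the fragment past the end. The CG difference of 5.30 ± 1.84 percentage points held in 32 of 32 accessions (adjusted p = 1.36e-05) and was 1.29 with CG values of exactly 100% left out. Promoter windows that overlapped the nearest fragment averaged 35.8% CG, against 24.6% for the others, some of which may overlap another fragment.

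Gene body and promoter window of near-TE loci were mostly in the same state. The 2 regions share sequence, so part of this agreement is built in. Of 412 loci with a CG level in both, 99 were at 50% or more in both and 198 at 10% or less in both. A low gene body with a promoter window at 50% or more was found at 0 loci, and the reverse at 3. Far loci showed the same pattern. Of 566 far loci, 43 were at 50% or more in both and 401 at 10% or less in both, with opposite states at 0 and 1. The mean difference between gene body and promoter window was -0.748 (CG), 0.589 (CHG) and -0.362 (CHH) percentage points, all past the threshold, but no direction held throughout. In CG it was 1.63 with values of exactly 100% left out, in CHG -4.76 with values as deposited and -0.545 where no sample lacked a value, and in CHH 0.439 with the median over loci. Promoter levels stood in the same order as gene bodies, with 26.9% CG for near-TE loci and 48.9% for loci over a TE fragment. The promoter difference between near-TE and far loci was 15.9 percentage points in CG, and 8.08 with values of exactly 100% left out; with the median over loci it was 0 and not called.

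Near-TE loci were less methylated than the TE fragments beside them. Over pairs in which both had a level, near-TE loci averaged 26.7% CG, against 44.0% in their nearest fragments (276 pairs). In CHG they averaged 8.49% against 12.5% (206 pairs), and in CHH 2.11% against 4.15% (301 pairs). The differences of -17.3 ± 1.96, -4.06 ± 0.781 and -2.04 ± 0.422 percentage points had the same sign in 32 of 32 accessions (adjusted p = 1.36e-05, sign-flip permutation test). The CG difference was -9.31 with values of exactly 100% left out. With the median over loci it was 0 in CHG, and in CHH the near-TE loci were then higher, by 0.409. Short fragments often lacked a level. Of 291 near-TE loci beside a fragment under 300 bp, 83 had a CG level for that fragment, with a mean of 37.3%. The mean was 64.7% for 69 loci beside fragments of 1000 bp or more. The pairs here and below thus hold few of the short fragments.

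A methylated locus was rare beside an unmethylated fragment, while beside a methylated fragment both states were common. Of 129 near-TE loci whose nearest fragment had at least 50% CG, 65 (50.4%) were at 50% or more and 41 at 10% or less. Of 71 loci whose fragment had at most 10% CG, 3 were at 50% or more and 65 at 10% or less. Among far loci, 26 of 103 (25.2%) were at 50% or more when the nearest fragment was, and 8 of 155 (5.16%) when it was at 10% or less. The Spearman rho between locus and fragment across loci was 0.525 over 276 near-TE pairs and 0.266 over 364 far pairs; loci share libraries and regions and are not independent, so no p is given.

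**Figure D3:**
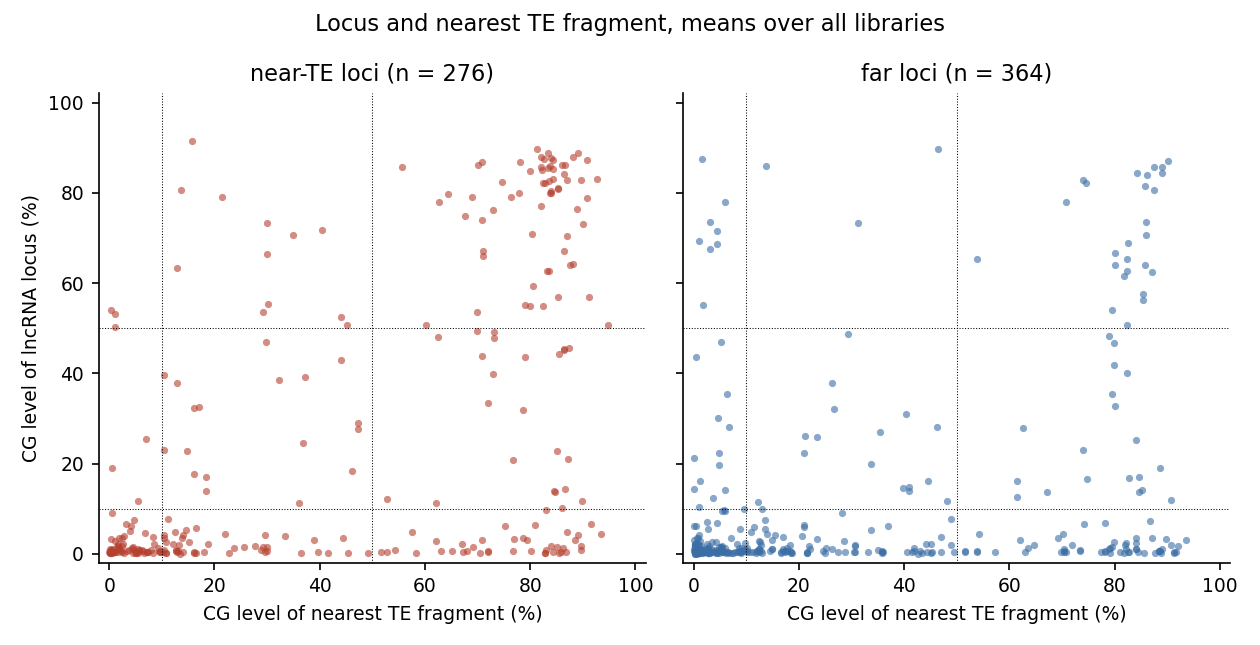
CG level of each lncRNA locus (%) against that of its nearest TE fragment (%), as means over libraries, for 276 near-TE loci (left) and 364 far loci (right); each point is 1 locus and dotted lines mark 10% and 50%. Near-TE points at high fragment levels fall into a group at 50% or more (65 of 129) and a group at 10% or less (41 of 129).

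Some near-TE loci were unmethylated while their nearest fragment was strongly methylated. Here the fragment could lie at any distance that the rule for near-TE loci allows. Of 76 named-locus candidates (at least 300 bp long, with values in all contexts) beside a fragment of at least 80% CG, 20 had at most 10% CG; the 4 lowest and CUFF_NC.3543, the second closest to a fragment, are described here as examples chosen for these values. CUFF_NC.3543 (chromosome 2, 6893185 to 6893633, minus strand, TAIR10) ended 1 bp from AT2TE28060, a fragment of 969 bp. Its CG level was 1.30% ± 6.12 over 30 accessions, with a library median of 0% and 1 library of accession 5779 at 100%, while AT2TE28060 averaged 86.3%. CUFF_NC.8138 (chromosome 4, 11177206 to 11178008, plus strand) lay 1 bp from AT4TE51310 and had 0.192% ± 0.548 CG, against 82.8% in the fragment. That fragment was not methylated throughout, with 0% CG in both libraries of 1254 and exactly 100% in both of 9057. CUFF_NC.8139, on the other strand and 986 bp from the same fragment, had 0.0725% ± 0.293. The gene nearest to CUFF_NC.8138 is FAH2, a fatty acid hydroxylase. CUFF_NC.648 (chromosome 1, 6456199 to 6457276) lay 15 bp from AT1TE20930 and had 0.287% CG, against 85.5% in the fragment. CUFF_NC.2842 (chromosome 1, 29841594 to 29842320), whose nearest gene encodes the metacaspase MC4, lay 72 bp from AT1TE97605 and had 0.312% ± 0.784, against 86.7%. The highest library at these last 4 loci was between 3.57% and 5.88%, so none was methylated in any of the 32 accessions.

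The mean level of near-TE loci differed between accessions more than between replicates. The accession accounted for 84.1% of the variance between libraries in CG, 89.3% in CHG and 75.9% in CHH (adjusted p = 1e-05 in each, permutation test of the F statistic, the smallest value that 100000 resamples can give). These shares are not corrected for fitting 32 accessions to 88 libraries, 3 of the accessions having 1 library. Shuffled labels would therefore also give a sizeable share. With the median over loci the CHH share was 35.7% and did not pass (adjusted permutation p = 0.474). In CG, 6220 was highest at 30.6% (4 libraries between 30.3% and 31.3%) and 9512 lowest at 21.1%, from 1 library; the next lowest was 6244, with libraries at 23.3% and 23.5%. In CHG, 6911 stood at 11.1% and 5856 at 10.7%, against 6.17% in 6244 and 6.21% in 10012. In CHH, 6911 was highest at 3.12%, with libraries at 2.69% and 3.54%, and 10012 lowest at 1.69%.

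Growth round left a mark in CHG. Its F statistic within accessions was 8.16 and it accounted for 31.6% of the variance within accessions (adjusted p = 0.00069, permutation within accessions), while F was 0.808 in CG and 0.997 in CHH (adjusted p = 0.554 for both). In round 1 the CHG level lay 0.401 ± 0.505 percentage points above the accession mean, with 14 of 18 libraries above it, and in rounds 2, 3 and 4 it lay at -0.200, -0.159 and 0.00464. Without round 1, F was 2.22 (adjusted p = 0.367).

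Across accessions the mean level of near-TE loci moved with the mean level of their nearest fragments. Pearson's r between the mean level of near-TE loci and that of their nearest TE fragments was 0.656 (CG), 0.845 (CHG) and 0.602 (CHH), n = 32 (adjusted permutation p = 3e-05, 3e-05 and 0.0003), and Spearman's rho was 0.681, 0.855 and 0.694 (adjusted permutation p = 5e-05, 1.5e-05 and 1.5e-05). Without the 2 accessions farthest from the median fragment level, r was 0.648, 0.825 and 0.603. Among loci with a value in every sample, r was 0.223, 0.502 and 0.155, and the calls in CG and CHH were lost (adjusted permutation p = 0.327 and 0.398). With the median over loci they were lost as well, at 0.423 in CG and 0.177 in CHH. Both levels come from the same libraries. Within growth rounds, r in CHG was between 0.648 and 0.796; in CG it was 0.434, 0.706, 0.623 and 0.355, of which the values of rounds 1 and 4 did not pass (permutation p = 0.0629 and 0.0821), and in CHH that of round 4 was 0.171 (permutation p = 0.415).

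Locus by locus r was lower. It compares single loci and fragments, whose values can vary between replicates, and not class means, so the 2 kinds of r are different measures. The fragment nearest to CUFF_NC.10720, for example, had 100%, 0%, 0% and 0% CG in the libraries of 5772. How far such variation changed r was not tested. Among 164 near-TE pairs in which locus and fragment each varied by at least 20 percentage points of CG between accessions, the median r over accessions was 0.105. It was above 0.5 in 16 pairs and negative in 60. Among 73 such pairs in CHG the median was 0.207, with 9 above 0.5 and 15 negative. For far loci the median was -0.0248 in CG over 159 pairs, while 35 pairs could be used in CHG. These values describe the pairs and were not tested.

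Single near-TE loci that differed between accessions were called with limma's moderated F-test between accessions, at p below 0.05 after Benjamini-Hochberg adjustment across the whole table. In CG, 245 of 454 near-TE gene bodies (54%) were called, against a background of 72.5% over all loci of the annotation, which are mostly protein-coding genes. With CG values of exactly 100% left out, 224 near-TE loci were called. The number tested and the background in that setting are not given here. In CHG, 164 of 439 (37.4%) were called against a background of 15.9%, and in CHH 106 of 454 (23.3%) against 11%. In promoter windows the calls were 181 of 417 in CG (43.4%, background 25%), 87 of 377 in CHG (23.1%, background 10.9%) and 76 of 418 in CHH (18.2%, background 7.39%). The called shares of far loci were 43.5% (CG), 25.2% (CHG) and 19.1% (CHH), and those of loci over a TE fragment 65.2%, 44.8% and 28.2%. Differences between these shares were not tested. When loci were required to have a value in every sample, 113, 55 and 48 near-TE gene bodies were called. Fewer loci could be tested then, with 231 near-TE loci having a CHH value in every sample. The share called over all loci in this setting is not given here, so these counts cannot be set against a background.

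At 125 of 438 near-TE loci (28.5%) the gene body was methylated in some accessions, at 50% CG or more, and low in others, at 10% or less. This count used accessions with at least 2 libraries, loci with values in at least 20 accessions, and no CG value of exactly 100%; with those values kept it was 195 of 454 (43.0%). A further 40 loci were methylated in every accession and 170 were low in every one. Both states occurred at 95 of 592 far loci (16.0%) and 186 of 515 loci over a TE fragment (36.1%). At 56 of the 125 loci fewer accessions were methylated than low. The locus was methylated in 1 accession at 16 loci and low in 1 accession at 17. Accession 6909, the reference line, was low at 54 of the 125 loci and methylated at 57.

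The accessions took unequal parts in these states. In 6220, 73 of 122 both-state loci with a value were methylated (59.8%), followed by 8244 with 60 of 109 (55.0%). In 6911 and 6069 the share was lowest, at 33 of 107 (30.8%) in each, and 6911 was the single low accession at 5 of the 17 loci with 1 low accession, more than any other. Accession 6909 was methylated at 57 of 125 (45.6%). These shares depend on the values left out. Dropping CG values at the top of the scale can leave a methylated locus without a value, most readily where libraries are few, while low loci are kept. Accessions 6911 and 6069 had 2 libraries each and 6220 had 4, but 8244, the second highest, also had 2. How far this moved the order of accessions was not tested.

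**Figure D4:**
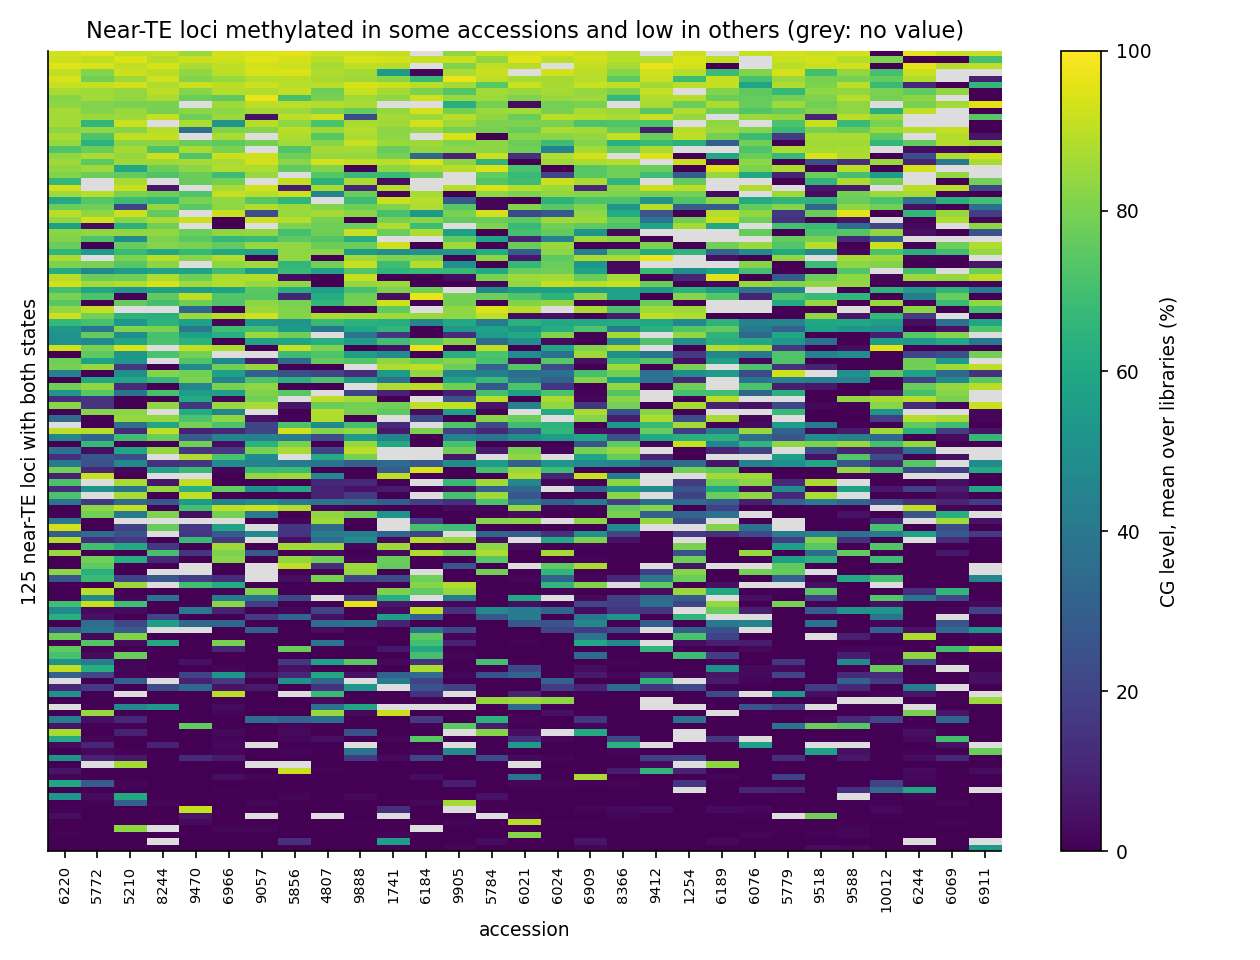
CG level (%, colour) of the 125 near-TE loci with both states, 1 per line, in 29 accessions with at least 2 libraries, 1 per column; CG values of exactly 100% were left out and grey marks no value. Lines and columns are sorted by mean level, from 6220 at the left (59.8% of its loci at 50% or more) to 6911 at the right (30.8%).

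The following 5 loci had the largest F statistic in CG among near-TE loci with a range of at least 50 percentage points, and were chosen after their values had been seen. CUFF_NC.10720 (chromosome 5, 20072869 to 20073380, minus strand) lies 160 bp from AT5TE72270 and 1186 bp from CP1. Its CG level in 88 libraries ran from 0% through a median of 0% to 91.7%. It was at 50% or more in 10 accessions and at 10% or less in 21, and replicates agreed closely, with a pooled SD of 3.99 percentage points. Accession 5772 was highest at 90.1% and 6909 was at 0%. CHG followed in fewer lines, at 26.9% in 9057 and 22.5% in 9905, while the highest accession in CHH was at 2.74%. CUFF_NC.6072 (chromosome 3, 11509459 to 11510510, minus strand) was at 50% or more in 11 accessions and at 10% or less in 20, with CHG up to 39.9% in 8366 and CHH up to 7.81% in 10012. In 6909 its CG level was 0.510%.

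CUFF_NC.3948 (chromosome 2, 10591595 to 10591972, minus strand) lies 212 bp from AT2TE45465, an annotated fragment of 16936 bp. It was methylated in all contexts in 5 accessions: in 6189 at 95.3% CG and 66.1% CHG, in 1741 at 94.6% and 57.6%, in 4807 at 88.5% and 49.5%, in 5772 at 88.4% and 53.9%, and in 6244 at 79.7% and 53.2%. Its CHH level in these lines was between 8.87% in 4807 and 16.5% in 5772. In the other 27 accessions the CG level was at most 5.56%, so the groups did not overlap. The fragment itself averaged 86.6% CG and was at 78.8% or more in each of the 32 accessions.

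CUFF_NC.6282 (chromosome 3, 14670198 to 14670951, pericentromeric) was methylated in 2 of 27 accessions, 5210 at 89.6% CG and 6189 at 82.8%, while the other 25 were at most 2.94%. Its nearest fragment, AT3TE60020 at 189 bp, averaged 81.0% CG. CUFF_NC.9891 (chromosome 5, 9902454 to 9903435, plus strand) was methylated in accession 9518 at 78.4% CG, 13.3% CHG and 4.38% CHH, while the other 26 accessions with a value were at most 5.24% CG. Its fragment, AT5TE36075 at 460 bp, had values in too few libraries for a level over accessions, but it varied: it had 88.9% CG in 9518, 62.1% in 5210, where CUFF_NC.9891 was at 0.245%, and 0% in 5772 and 6909.

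CUFF_NC.3591 (chromosome 2, 7229446 to 7229919, minus strand), which had the widest CHG range, lies 321 bp from AT2TE29450, a fragment of 5041 bp. It had 71.8% CHG in 9412, 56.7% in 9057, 49.8% in 9905, 45.4% in 8366, 31.2% in 6021 and 26.4% in 6076, and its fragment had 57.3%, 56.4%, 55.2%, 54.5%, 54.5% and 0.380% in the same accessions. In accession 6076 the locus was thus methylated in CHG while the sequence read as the fragment was not. Whether the fragment lies beside the locus in 6076 is not known. The opposite also occurred, since the locus was at 0% CG in 6189, 6244, 6909 and 9470 while the fragment was at 89.5%, 86.6%, 87.5% and 84.8%. The locus was picked among loci called in CHG, so its pass there was set by the choice (adjusted p = 4.5e-18, limma F-test).

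**Figure D5:**
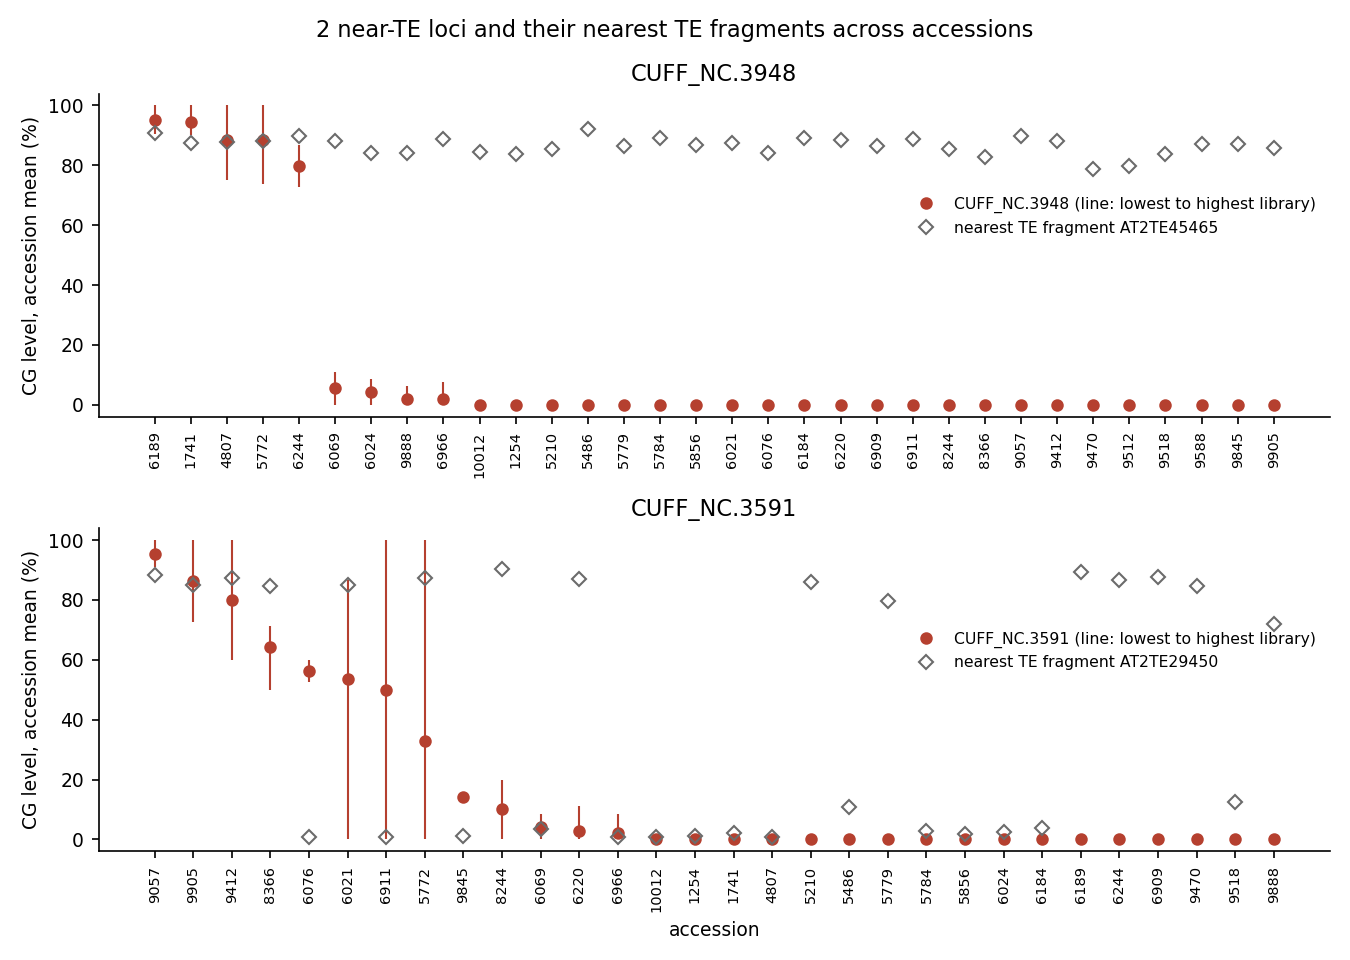
CG level (%) of CUFF_NC.3948 (top) and CUFF_NC.3591 (bottom) by accession, with filled points at the accession mean and lines from the lowest to the highest library, and open diamonds for the nearest TE fragment. At CUFF_NC.3948 the locus was high in 5 accessions while the fragment was high in all, and at CUFF_NC.3591 locus and fragment both varied.

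The 3 near-TE loci whose CHG level went most closely with that of their fragment, again picked for that value, were CUFF_NC.9959, CUFF_NC.2474 and CUFF_NC.1554, with r over accessions of 0.837, 0.744 and 0.677. CUFF_NC.9959 (chromosome 5, 10613828 to 10614783, pericentromeric) lies 45 bp from AT5TE38690 and was at 50% CG or more in 20 accessions and at 10% or less in 10. It had 45.2% CHG in 6184, where the fragment had 77.8% in the 1 library with a value, and 0% in 5779, where the fragment had 0%. CUFF_NC.2474 (chromosome 1, 26345438 to 26345851), whose nearest gene is the pectin methylesterase PPME1, was methylated in 2 accessions. It reached 95.8% CG and 60.4% CHG in 9905 and 91.2% and 52.5% in 9470, while its fragment at 25 bp, AT1TE86300, had 40% CHG in 9905 and 0% in 9470. This r rests on 1 accession, 9905, in which the fragment had a CHG value in 1 library. CUFF_NC.1554 (chromosome 1, 17413306 to 17413791, plus strand) abuts AT1TE57700 at 0 bp, its CG level ran from 3.19% in 9518 to 93.7% in 5856, and 14 accessions were at 50% or more and 7 at 10% or less. The fragment averaged 70.8% CG and had 75.8% in 5856 and 75.8% in 9518.

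The rule for widest CG range could not rank its leading loci, because 20 near-TE loci that were called tied at a range of 100 percentage points, and the 6 taken by identifier were CUFF_NC.10164, CUFF_NC.1135, CUFF_NC.1161, CUFF_NC.1356, CUFF_NC.1414 and CUFF_NC.3139. With CG values of exactly 100% left out, their ranges were 88.6, 20, 90.3, 89.8, 80 and 92.7 percentage points, so the range of CUFF_NC.1135, near the cell-wall gene XTH30, rested on such values; its pooled replicate SD was 30.2 percentage points. CUFF_NC.10164 (chromosome 5, 14289570 to 14290485, minus strand) was at 50% CG or more in 18 of 28 accessions and at 10% or less in 9. Its CHH level was also among the most variable of the loci called in CHH, a choice that sets its pass there. It was at 27.0% in 6069 and 20.8% in 6024, against 0% in 1254 and 8366 (adjusted p = 8.51e-08, limma F-test). CUFF_NC.3139 (chromosome 2, 2362842 to 2363422) lies 466 bp from OPR3, an enzyme of jasmonate synthesis, with a CG level of 55.4% ± 25.7 and a promoter level of 90.7%.

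CUFF_NC.1541 (chromosome 1, 17279895 to 17280620, minus strand), CUFF_NC.6374 and CUFF_NC.6385 followed CUFF_NC.3591 in CHG range among loci called in CHG. CUFF_NC.1541 was methylated in most lines, with 25 accessions at 50% CG or more and 4 at 10% or less. It was at 0% CG in 1254, 10012 and 9512, where CHG was 0% as well, against 71.6% CHG in 5856. CUFF_NC.6374 (chromosome 3, 15780924 to 15782024, pericentromeric) was at 50% CG or more in 19 of 30 accessions and at 10% or less in 5.

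Among loci called in CHH, those with the widest range between accessions were CUFF_NC.2314, CUFF_NC.10164, CUFF_NC.9834 and CUFF_NC.6309. In CUFF_NC.2314 (chromosome 1, 24843303 to 24843833, minus strand) accession 4807 had CHH levels of 72.4%, 39.7%, 17.6% and 0% and CG levels of 82.9%, 55.9%, 29.4% and 0% in its 4 libraries, so the replicates of 1 accession spanned the whole range. Accession 6069 had 20.7% CHH and 29.2% CG there, and the other accessions were at most 1.13% CHH. The CHH call (adjusted p = 0.00383) was lost without replicate 2, and also without replicate 3.

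The most methylated near-TE loci differed in context. The highest CG levels were 91.6% ± 6.76 at CUFF_NC.7614, 89.7% ± 5.94 at CUFF_NC.3303, 88.9% ± 9.71 at CUFF_NC.7492 and 88.8% ± 6.67 at CUFF_NC.6038, of which CUFF_NC.3303 and CUFF_NC.7492 are pericentromeric. CUFF_NC.7614 (chromosome 4, 5642981 to 5643405) did not follow its nearest fragment, AT4TE23640, which averaged 15.8% CG. The highest CHH levels were at CUFF_NC.7618, CUFF_NC.3864, CUFF_NC.3863 and CUFF_NC.6327. CUFF_NC.3863 and CUFF_NC.3864 overlap on opposite strands of chromosome 2 (9855193 to 9855897 and 9855388 to 9855804), share the fragment AT2TE42140 and lie beside NRAMP3, a metal transporter of the vacuole, so they are not independent. CUFF_NC.6327 (chromosome 3, 15365738 to 15366774, pericentromeric) is 771 bp from JAZ11, a repressor of jasmonate responses. It had 82.8% ± 19.3 CG, 46.9% ± 13.5 CHG and 13.6% ± 6.10 CHH over accessions, and stood at 31.7% CG in 6911 and at 0% in the 1 library of 5784 with a value.

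At the limit of the rule, the 3 loci just inside were CUFF_NC.9475, CUFF_NC.7505 and CUFF_NC.7779, at 994, 993 and 989 bp from a fragment, with CG levels of 0.442%, 87.9% and 0.340%. CUFF_NC.9475 lies 86 bp from RGL3, a DELLA repressor of gibberellin responses. The 3 far loci just outside were CUFF_NC.3093, CUFF_NC.10408 and CUFF_NC.2336, at 1004, 1006 and 1009 bp, with 2.87%, 3.01% and 87.0%. Methylated and unmethylated loci thus stood on both sides of the limit.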

How the data were processed

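Methylation levels were deposited by the authors as fractions from 0 to 1 per locus and library, in 12 tables (3 contexts, gene body or promoter, 2 annotations). The genome build was TAIR10, per the submitters' processing notes; neither aligner nor caller nor the formula behind a level is stated in the labels. Fractions are printed as percentages, and 0 columns of per-sample values were left out. The near-TE loci and all lists were chosen with earlier results of these data known.

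Classes were built with bedtools 2.31.1 from gene-body coordinates. TE starts in Araport11 count from 1 (12011 adjacent fragments began 1 bp after the previous end, 0 on it) and were converted. Neighbouring genes were named from RefSeq (TAIR10.1), where 587 of 587 were found. A CHH value of exactly 1 counted as no data for that locus and library whatever the context, and a CHG value of 1 as no data for CHG; CG loci at 1 throughout were removed. These codes were inferred from the values. Loci needed a value in 80% of libraries. A class level is the mean of its loci in a library, averaged over an accession's libraries.

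Differences over 32 accessions were tested two-sided by flipping signs in 100000 resamples, with Benjamini-Hochberg adjustment over 12 tests between classes and 15 inside the class. These tests take the loci as fixed and do not measure the spread over loci. The accession term was tested by shuffling libraries, growth round by shuffling within accessions, and correlations by shuffling accessions (3 tests each). Single loci were tested with a one-way F-test moderated by limma 3.58.1 in R 4.3.3 over all loci of a table. Tested on simulated data with 200 changed loci, it recovered 66.5% in CG, 74% in CHG and 82% in CHH, with 4, 4 and 11 false calls. The rate of false calls on the deposited levels was not tested. Replicates are separate libraries of an accession; the labels tie the replicate number to a round of growth, so rounds were also fitted as a block. The median correlation of deviations from the accession mean over near-TE loci was 0.00253 between libraries of the same round in CG (898 pairs) and -0.00154 between rounds.

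Named loci were near-TE loci of at least 300 bp with values in all contexts (437): among called loci the 6 widest CG ranges between accessions with at least 2 libraries, the 4 widest in CHG and in CHH, then the 4 highest in CG and in CHH, the 3 nearest a TE fragment, and 3 on each side of the limit. Of the nearest 3, CUFF_NC.7667 (1 bp) had 0.515% CG. Python 3.11.15, NumPy 2.4.6, pandas 2.3.3, SciPy 1.17.1 and matplotlib 3.10.9 were used. No sequence is printed, since no genome was used here.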

Additional observations from a re-analysis of the deposited data

Results flagged for a closer look

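In 7 of 66 groups of 4 libraries of 1 accession, the mean level of near-TE loci in 1 library lay far from the other 3, measured by its gap to the nearest of them over the range; chance gives about 1 in 20. In CG of gene bodies, accession 5210 replicate 3 had 30.8%, against 28.1% to 28.5% in the others, and accession 6220 replicate 1 had 31.3%, against 30.3% to 30.4%. In CHG of gene bodies, accession 4807 replicate 1 had 10.8%, against 8.93% to 9.22%, and accession 5210 replicate 3 had 7.49%, against 8.05% to 8.11%. In CHG of promoter windows, accession 4807 replicate 3 had 8.32%, against 7.85% to 7.87%, and accession 6021 replicate 4 had 7.11%, against 6.04% to 6.14%. In CHH of promoter windows, accession 6966 replicate 3 had 2.25%, against 2.43% to 2.46%. None of 16 such groups at the loci described by their extreme accessions stood out in this way.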

How the results depend on the processing

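Of 498 values of 36 level, term and correlation results under alternatives, 452 kept direction and call; 30 lost the call, 1 gained it and 15 changed direction. The CG as missing alternative, and the one without 5779 replicate 1, were chosen after seeing the data. The cause of these changes was not tested, except that fewer loci could be tested where a value was needed in every sample. Counts of called loci under alternatives are given without the number tested or the share over all loci, so they are not shares. With values as deposited, gene body minus promoter in CHG was -4.76 and the F of round in CHG 3.05, and the called loci numbered 307 in CHG and 272 in CHH, and 308, 265 and 251 in promoter CG, CHG and CHH. With a value in every sample, they numbered 113, 55 and 48, and in promoters 53, 12 and 13; gene body minus promoter in CHG was -0.545, the F of round in CHG 2.19, and r with the nearest fragments 0.223 in CG and 0.155 in CHH. TE before start minus past end was then 0.442 in CG, -1.40 in CHG, -0.0399 in CHH and -1.43 in promoter CHG; with any value it was 0.398 in CG and -0.0810 in CHH, for loci of at least 500 bp -2.85, -0.885 and -0.335, without 6909 0.484 in CG and 0.0279 in CHG, and with CG of exactly 100% missing 0.358. With the median over loci, near-TE minus far loci was 0.0347 in CG, 0 in CHG, promoter CG and promoter CHG, and 0.0255 in promoter CHH; below 250 bp minus 500 to 1000 bp was 0 in CHG; the TE side gave -0.0746 in CG, 0 in CHG, -0.00391 in CHH and 0 in promoter CG and CHG; gene body minus promoter was 0.0112, 0 and 0.439; near-TE loci minus fragments was 0 in CHG and 0.409 in CHH; the accession term in CHH was 35.7%, the F of round in CHH 4.23, and r 0.423 in CG and 0.177 in CHH. Gene body minus promoter in CG was -0.167 for loci of at least 500 bp and 1.63 with CG of exactly 100% missing. Without 1 round of replicates, the TE side ranged from 0.362 to 1.33 in CG, 0.117 to 0.493 in CHG and 0.0551 to 0.143 in CHH, and the F of round in CHG from 2.22 to 12.9.

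With the growth round as a replicate block, 239, 164 and 106 gene bodies and 172, 86 and 68 promoters were called, and no level, term or correlation result changed its call. Of the loci named, the block ended the calls of CUFF_NC.9834 in CHG and CHH, CUFF_NC.3303 in CHH and CUFF_NC.7505 in CHG, and made calls of CUFF_NC.1554 in CHH, CUFF_NC.3863 in CG and CUFF_NC.7618 in CHG. Of 58 calls at named loci, 38 held under every alternative. Read depth is unknown, which limits what single values at short loci can show.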
